A study of Canis lupus familiaris with 8 samples.

Results

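The microRNA miR-34a (cfa-miR-34a) was followed across canine mammary tumour cells that resist doxorubicin and the cells they came from. It is 1 of 454 canine miRNAs on the array and was chosen by name. Doxorubicin is a chemotherapy drug that damages DNA. Both Star groups carry the label doxorubicin treated, and the labels do not say whether the drug was present when the cells were collected.

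The groups were Star CSC, Star parent, Stylo CSC and Stylo parent, with 2 samples each (8 in all). Star parent is the subline CMT-Star, grown from CMT-Stylo under rising doxorubicin over months until it withstood 100 nM. Stylo parent is the untreated line CMT-Stylo. Star CSC and Stylo CSC were sorted from the 2 lines by flow cytometry as CD44+, CD24-/low and ALDH+ cells, the surface and enzyme phenotype used for breast cancer stem cells, and the labels call them cancer stem cells. All groups therefore share 1 origin, and every contrast of Star with Stylo compares a single derived subline with its source. Nothing in the labels ties the replicates to separate cultures or sorts, so a p-value here weighs the scatter of these samples alone, and that scatter may be technical.

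In human and mouse cells DNA damage can raise the miR-34a host transcript, and the mature miRNA represses mRNAs of cell cycle and survival genes such as CDK4, CDK6, cyclin D1, MET and BCL2. It also represses SIRT1, a protein deacetylase, and CD44, one of the markers used in the sort. Related miRNAs of the miR-34 and miR-449 families share targets with it. In the RefSeq dog annotation (UU_Cfam_GSD_1.0), MIR34A lay between GPR157 and LOC111095987, and MIR34B and MIR34C were neighbours of each other, between HOATZ and BTG4.

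RNA was hybridised to 1-colour Agilent arrays with 18160 spots each, of which 4.19% to 8.78% were well above background and 0 were saturated. Stylo parent 2 had a scanner file identical to that of Stylo parent 1, with no sampling noise between them. The pair counts as 1 sample, so 7 arrays remain. Stylo CSC 1 was hybridised on slide 2 and the other distinct arrays on slide 1. The slide behind the deposited values of Stylo parent 2 is not known, since its file repeats that of Stylo parent 1. Its correlation with the slide 1 arrays was 0.544 to 0.614, against 0.932 to 0.999 among slide 1 arrays, over the 17 miRNAs that all 7 arrays measured well above background. On slide 1 the Star arrays occupied row 2 and the Stylo arrays row 1, so row and line cannot be told apart. Each result is therefore given over 7 arrays, over the 6 arrays of slide 1, and from the deposited value table turned back into totals. These sets share most of their arrays. The miRNAs listed as epithelial markers (0 of 7), mesenchymal (0 of 4) and muscle (0 of 4) were not well above background on any array, so the epithelial origin of the lines was not visible in these markers. Of 6 haematopoietic miRNAs, miR-155 and miR-223 were well above background on 1 array, Stylo parent. In the totals from the deposited table, miR-223 was detected in 6 of the 8 columns and miR-155 in 5. The part of other cells in the results was not tested.

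Both probes of miR-34a were brightest on the Star CSC arrays, and the brighter probe was well above background on all 7 arrays. Each probe was printed in 20 spots. The brighter probe, A_38_P00002113, had a mean background-subtracted signal over its spots of 248 ± 11.46 and 206 ± 26.5 units (SD over spots) on the Star CSC arrays. On the Star parent arrays it had 115 ± 4.91 and 109 ± 7.96, on the Stylo CSC arrays 22.2 ± 5.28 and 104 ± 13.0, and on the Stylo parent array 71.7 ± 7.94. The Star CSC arrays lay above every other array, and Stylo CSC 1, on slide 2, lay far below Stylo CSC 2. On that array 12 of the 19 spots used were well above background, whereas on the other 6 arrays all spots used were.

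The dimmer probe, A_38_P00002112, had 49.97 ± 7.60 and 47.1 ± 10.4 units on the Star CSC arrays and 24.3 ± 2.63 and 21.9 ± 5.16 on the Star parent arrays. It had 7.96 ± 2.61 and 20.0 ± 6.11 units on the Stylo CSC arrays and 13.9 ± 3.78 on the Stylo parent array. It was well above background on the 4 Star arrays and on none of the 3 Stylo arrays (0 of 16, 6 of 20 and 1 of 20 spots on Stylo CSC 1, Stylo CSC 2 and Stylo parent). Its groups lay in the same order as those of the other probe on slide 1. On Stylo CSC 1 its mean stood 1.56 SD of the negative-control spots above their mean, against 2.73 to 12.6 SD on the other arrays.

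**Figure D1:**
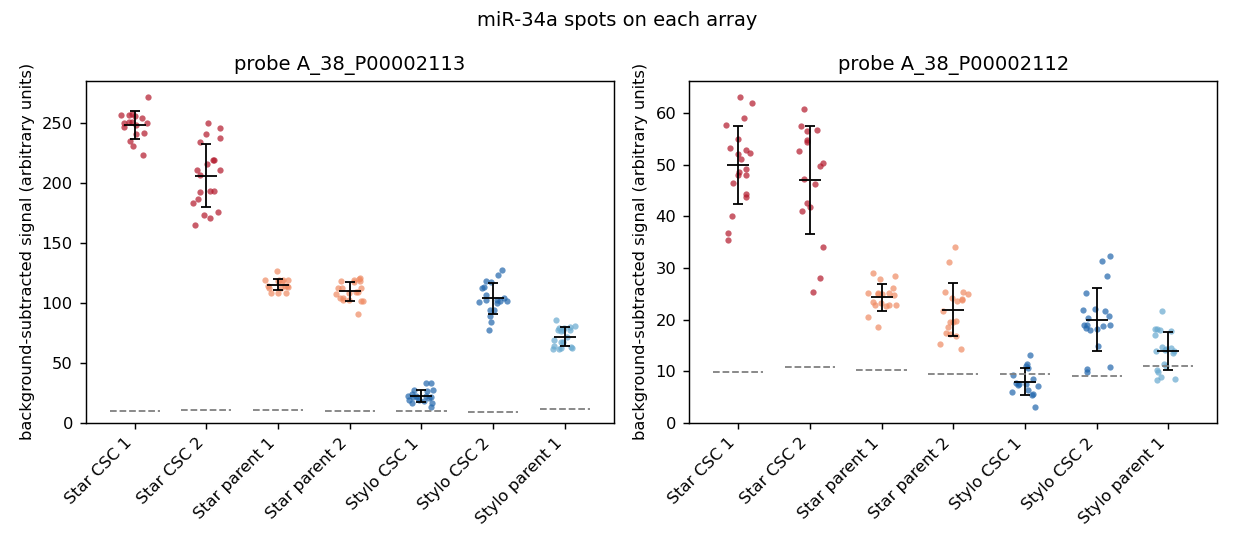
Background-subtracted signal (arbitrary units) of each miR-34a spot on the 7 distinct arrays, for the probes A_38_P00002113 (left) and A_38_P00002112 (right), with black bars for the mean ± SD over spots and dashed grey lines for the mean plus 2 SD of that array's negative-control spots. Star CSC spots sit highest for both probes, and Stylo CSC 1 sits lowest, with the brighter probe at 22.2 ± 5.28 units.

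Before scaling, the summed signal of the 2 probes was 298 and 253 units on the Star CSC arrays, 140 and 131 on the Star parent arrays, 30.2 and 124 on the Stylo CSC arrays and 85.6 on the Stylo parent array. The scanner software's own total for miR-34a was 84.3 ± 7.36 and 71.6 ± 6.36 units (the software's error) in Star CSC and 39.5 ± 3.76 and 37.1 ± 3.56 in Star parent. It was 6.27 ± 1.34 and 34.9 ± 3.47 in Stylo CSC and 24.2 ± 2.69 in Stylo parent. The order of the arrays was the same in both measures, and the error was 21.4% of the total on Stylo CSC 1 and 8.73% to 11.1% on the others.

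Array brightness also differed between the groups and was highest in Star CSC. Each array was divided by its 75th percentile over the 22 probes that every array measured well above background, which was 500 and 460 units for Star CSC, 333 and 316 for Star parent, 212 and 307 for Stylo CSC and 219 for Stylo parent. The number of miRNAs well above background was 49 and 43 in Star CSC, 35 and 40 in Star parent, 24 and 40 in Stylo CSC and 33 in Stylo parent. The part of array brightness in the unscaled order of miR-34a was not tested. More RNA of the miRNA per cell and more cells that carry it cannot be told apart in such bulk samples.

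After scaling over 7 arrays, the log2 level of miR-34a was −0.75 and −0.86 in Star CSC, −1.26 and −1.26 in Star parent, −2.81 and −1.31 in Stylo CSC, and −1.35 in Stylo parent. The group means were −0.80 ± 0.080 in Star CSC, −1.26 ± 0.0052 in Star parent and −2.06 ± 1.06 in Stylo CSC (SD, n = 2 each). Star CSC lay highest and did not overlap any other group, Star parent lay 0.094 above the single Stylo parent array, and Stylo CSC spanned Stylo parent.

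Over the slide 1 arrays the level was −0.038 and −0.16 in Star CSC, −0.44 and −0.55 in Star parent, −0.61 in Stylo CSC and −0.84 in Stylo parent. No group overlapped another. The gap of 0.12 between Star parent (mean −0.49 ± 0.07, SD, n = 2) and the 1 Stylo CSC array was not tested, and neither was any order of 4 groups.

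**Figure D2:**
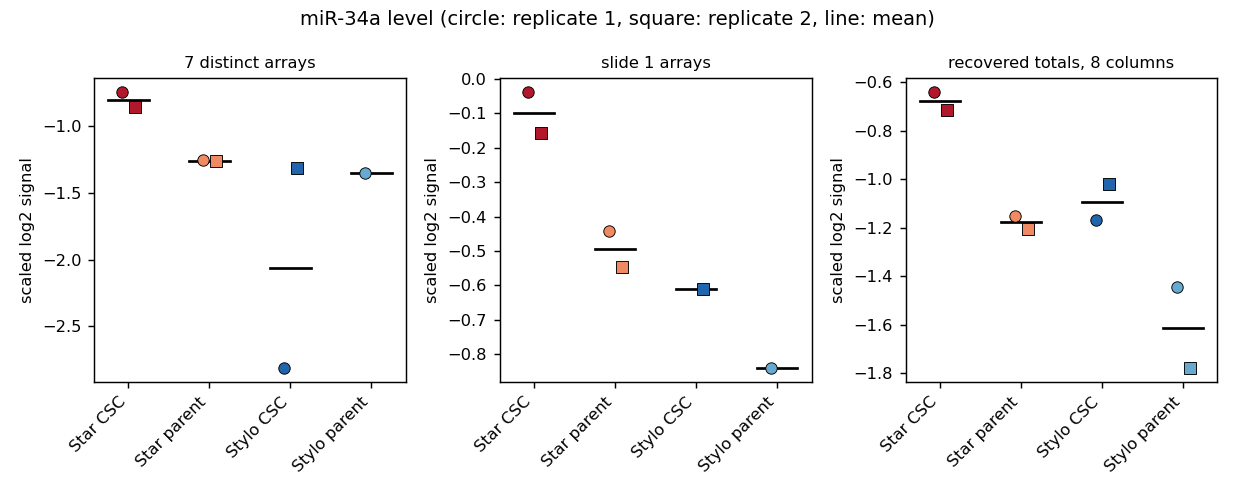
Scaled log2 level of miR-34a in Star CSC, Star parent, Stylo CSC and Stylo parent (each point is an array or table column, lines are group means) for the 7 distinct arrays, the 6 slide 1 arrays and the 8 recovered columns. Star CSC is highest in all 3 panels, and the order of Star parent and the 2 Stylo groups differs between them, with the slide 2 array at −2.81 in the left panel.

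The deposited value table gives miR-34a in all 8 columns, including values for Stylo CSC 1 and Stylo parent 2 that differ from their scanner files. The deposited values were 0.070 and 0.14 in Star CSC, −0.070 and −0.29 in Star parent, 5.85 and −0.27 in Stylo CSC and −0.50 and 5.15 in Stylo parent. Taken as they stand, Stylo CSC 1 and Stylo parent 2 would be highest by far. The medians of those 2 columns over all entries were 6.15 and 6.15, whereas the other 6 columns had medians of −0.94 to 0.29.

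Each column was shifted by a constant, and the table was centred per miRNA. With both removed, log2 totals of miR-34a were 6.40 and 6.16 in Star CSC, 5.30 and 5.22 in Star parent, 5.09 and 5.13 in Stylo CSC and 4.60 and 4.39 in Stylo parent. For Stylo CSC 1 the recovered total was 34.0 units, where its scanner file gave 6.27 (log2 2.65), and for Stylo parent 2 it was 20.9, where its scanner file gave 24.2. Entries were matched to the scanner totals as differences from Star CSC 1, less the column's shift. In the other 6 columns all 475 entries matched within 0.01 on the log2 scale, by construction for Star CSC 1 itself. For Stylo CSC 1 420 matched and for Stylo parent 2 417, 0 of them detected in the scanner file. The shift of these 2 columns thus rests on undetected entries, which touches their totals and leaves levels above the floor unchanged after scaling. Recovered and scaled, the level was −0.64 and −0.72 in Star CSC, −1.15 and −1.20 in Star parent, −1.17 and −1.02 in Stylo CSC and −1.45 and −1.78 in Stylo parent. Star CSC was again highest and Stylo parent lowest, and Stylo CSC overlapped Star parent, their means lying 0.083 apart.

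**Figure D3:**
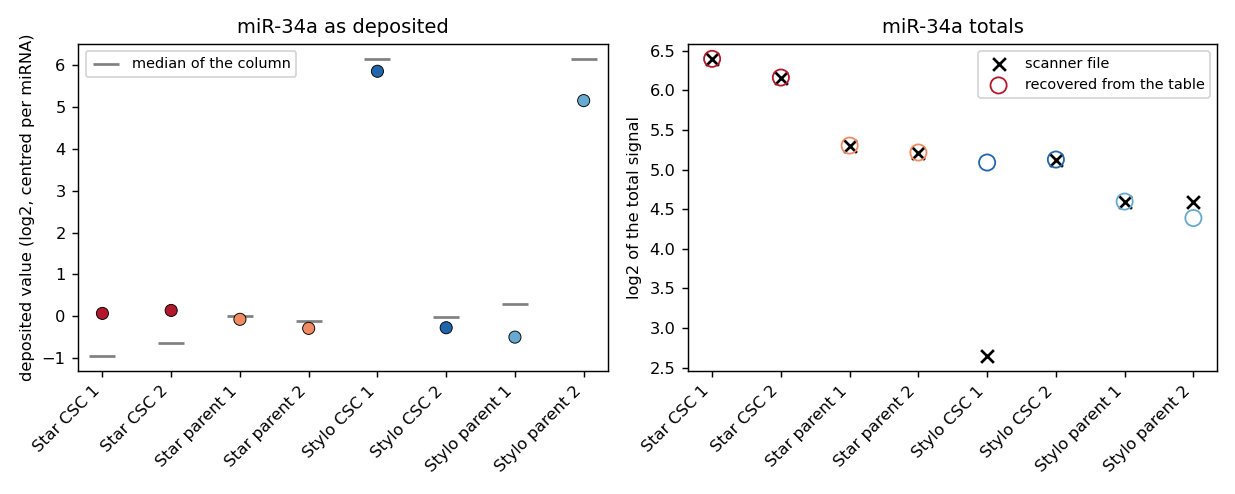
Left, the deposited value of miR-34a in each of the 8 columns (log2, centred per miRNA) with the column's median over all entries as a grey dash; right, log2 of the total signal from the scanner files (crosses) and as recovered from the table (circles). The 2 columns with medians of 6.15 hold the 2 high deposited values, and the scanner file and the table part most for Stylo CSC 1, at 2.65 and 5.09.

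None of the 5 contrasts of miR-34a passed limma's test at an adjusted p of 0.05 over 7 arrays. Unadjusted, 0 had a p under 0.05, the lowest being 0.0783. That fit pools its error over the groups, and the error came mostly from Stylo CSC (SD 1.06), whose 2 arrays lay on different slides. The SD was 0.080 in Star CSC and 0.0052 in Star parent. For Star CSC minus Star parent the SE was 0.54 in that fit and 0.05 with only these 2 groups fitted. On slide 1, 2 of 5 passed, and in the recovered totals 2 of 5. Star CSC against Star parent was the 1 contrast that passed in both of those sets, which share 6 arrays.

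Star CSC was set against Star parent to compare sorted cells with their own resistant line. MiR-34a was higher in both Star CSC arrays than in both Star parent arrays in all 3 sets. The log2 difference was 0.46 ± 0.54 (SE, 95% interval −1.03 to 1.94, limma adjusted p = 0.752) over 7 arrays, where 2.17% of the 46 tested miRNAs passed. On slide 1 it rose by 0.40 ± 0.07 (0.17 to 0.63, adjusted p = 0.0270), a 1.32-fold difference, where 52% of 50 miRNAs passed. In the recovered totals it rose by 0.50 ± 0.13 (0.16 to 0.84, adjusted p = 0.0382), 1.41-fold, where 35.7% of 56 passed. Passing was common in both sets, and the medians of all tested miRNAs were 0 on slide 1 and 0.091 in the recovered totals.

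Slide 2 held 1 array, so fitting slide as a block leaves that array no weight, and the difference was then 0.46 (adjusted p = 0.00716) on the other 6. Both calls were lost when single arrays were left out. Leaving out any 1 of the 4 Star arrays on slide 1 gave differences of 0.34 to 0.46. The slide 1 fit had 2 residual degrees of freedom, all from the Star arrays, and leaving out a Star array leaves fewer. Loss of the call there thus cannot be told apart from the lost degree of freedom. In the recovered totals, 7 of the 8 columns each ended the call when left out (0.39 to 0.54, adjusted p up to 0.171). Without Stylo parent 1, the other, it was 0.0147. With no scaling the slide 1 difference was 1.02 (limma adjusted p = 0.0118), with scaling over all probes 1.26 (0.503), and with quantile normalization 0.14 (0.441). Its size followed the scaling while its direction did not change. Over 7 arrays, no scaling and scaling over all probes also gave 1.02 and 1.26. The medians of all tested miRNAs were 0.53 and 0.76 there, and relative to them miR-34a was 0.49 and 0.50. With quantile normalization it was 0.13 over 7 arrays, where the median was 0.

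Both probes passed on slide 1. Star CSC exceeded Star parent by 0.39 ± 0.08 for A_38_P00002113 (adjusted p = 0.0410 over 73 probes) and by 0.45 ± 0.08 for A_38_P00002112 (adjusted p = 0.0333). Over 7 arrays the brighter probe differed by 0.45 ± 0.61 (adjusted p = 0.875), and the dimmer one by 0.51 ± 0.06 (adjusted p = 0.0300 over 67 probes). For the dimmer probe Stylo CSC 1 and Stylo parent were at the common floor (−3.943) and Stylo CSC 2 lay just above it (−3.942). The part of the floor in the dimmer probe's error was not tested. Over 7 arrays its difference turned to −0.024 with normexp (adjusted p = 1) and was 1.24 with scaling over all probes (adjusted p = 0.456), so the call was lost under both.

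Stylo CSC against Stylo parent asks the same of the drug-sensitive line, and its direction depended on the set. Over 7 arrays the difference was −0.71 ± 0.66 (−2.53 to 1.11, adjusted p = 0.604), where 2.17% of miRNAs passed and their median was −0.25. On slide 1, with 1 array against 1, it was 0.23 ± 0.10 (−0.10 to 0.56, adjusted p = 0.152), where 34% passed. The lone arrays are assumed there to vary as the Star arrays do. From the recovered totals it rose by 0.52 ± 0.13 (0.18 to 0.86, adjusted p = 0.0373), 1.43-fold, where 30.4% passed.

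That call used both columns that differ from their scanner files, and the slide of Stylo parent 2 is not known. Leaving out any column but Stylo parent 1 ended it, with a difference of 0.16 (adjusted p = 0.402) without Stylo parent 2 and 0.50 (adjusted p = 0.162) without Stylo CSC 1. Without Stylo parent 1 it was 0.68 (adjusted p = 0.0141). Over 7 arrays, leaving out Stylo CSC 2 instead gave −1.46 (adjusted p = 0.00154), so which of the 2 Stylo CSC arrays is kept sets the sign. With slide as a block, which gives Stylo CSC 1 no weight, it was 0.042 (adjusted p = 0.647), from 1 array against 1. The cause of the gap between these 2 arrays was not tested.

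**Figure D4:**
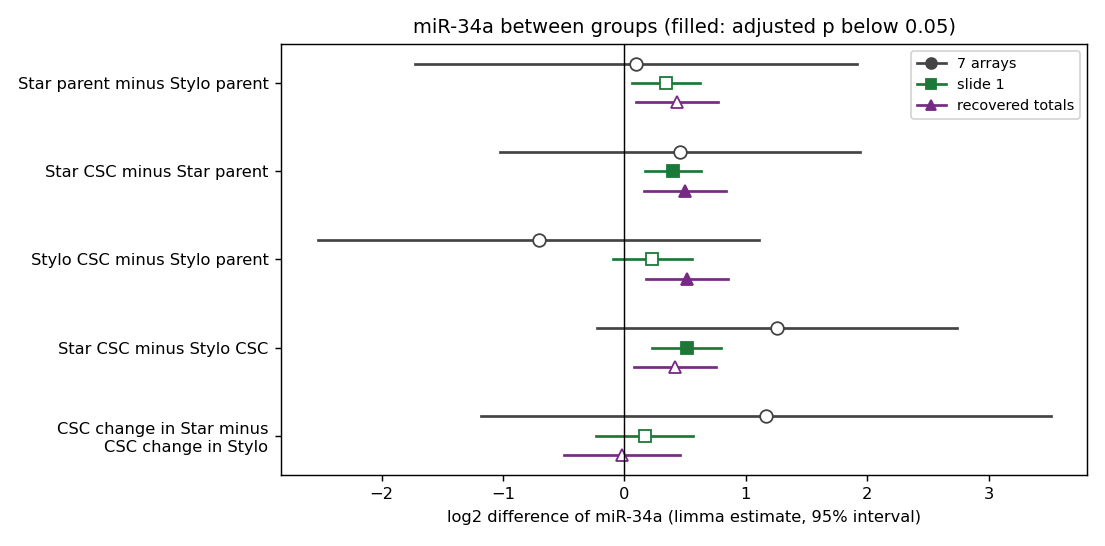
Limma's log2 difference of miR-34a (symbol) with its 95% interval (line) for 5 contrasts in 3 sets of values, filled where the adjusted p was below 0.05. Star CSC minus Star parent is filled on slide 1 (0.40) and in the recovered totals (0.50), the 7-array intervals all include 0, and the interaction is open in every set.

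Star CSC against Stylo CSC compares sorted cells of the resistant and the sensitive line. Every Star CSC array lay above every Stylo CSC array in the 3 sets. Over 7 arrays the difference was 1.26 ± 0.54 (−0.23 to 2.74, adjusted p = 0.348), where 4.35% of miRNAs passed. On slide 1 miR-34a rose by 0.51 ± 0.08 (0.23 to 0.79, adjusted p = 0.0341), 1.43-fold, where 46% passed. Stylo CSC had 1 array there, which is assumed to vary as the Star arrays do. From the recovered totals it was 0.42 ± 0.13 (0.08 to 0.76, adjusted p = 0.0882), where 19.6% passed.

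With slide as a block, which leaves 1 Stylo CSC array, the difference was 0.51 (adjusted p = 0.0140). The slide 1 call was lost with any 1 Star array left out (0.45 to 0.57), which also leaves fewer residual degrees of freedom. The 7-array value was 2.01 without Stylo CSC 2. Without Stylo parent 1 the recovered totals passed at 0.42 (adjusted p = 0.0354). The dimmer probe was not well above background in Stylo CSC. With the 7-array scaling, a bound put its signal in Star CSC at least 1.26-fold higher. No bound was taken with other scalings or with normexp. The floor was −3.943, with Stylo CSC 1 at it and Stylo CSC 2 at −3.942, so Stylo CSC had almost no spread there. The difference from that floored mean was 0.64 (means −3.31 and −3.94, limma adjusted p = 0.0145 over 7 arrays). With normexp that difference turned to −0.13 (adjusted p = 0.288), and with scaling over all probes it was 1.17 (adjusted p = 0.462). Against the Stylo parent array, also not well above background, its bound with the 7-array scaling was 1.03-fold.

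Star parent against Stylo parent compares the resistant subline with its source, and miR-34a did not pass in any of the 3 sets. The difference was 0.094 ± 0.66 (−1.72 to 1.91, adjusted p = 0.978) over 7 arrays, where 2.17% of miRNAs passed. It was 0.34 ± 0.08 (0.06 to 0.63, adjusted p = 0.0670) on slide 1, with 1 Stylo parent array, where 32% passed, and 0.43 ± 0.13 (0.10 to 0.77, adjusted p = 0.0607) in the recovered totals, where 32.1% passed. Without Stylo parent 1 the recovered totals passed at 0.60 (adjusted p = 0.0141). Both Star parent arrays were above the Stylo parent values in each set, yet scaling over all probes turned the sign (−0.37, adjusted p = 0.967 over 7 arrays and 0.979 on slide 1), as did normexp over 7 arrays (−0.15, adjusted p = 0.350). The 7-array and slide 1 values come from the same arrays of these groups, scaled over different shared probes. The median of all tested miRNAs was −0.25 over 7 arrays and 0.28 in the recovered totals, so relative to it the values were 0.34 and 0.15. The settings that turned the sign over 7 arrays also moved the median, to −0.71 with scaling over all probes and −0.35 with normexp. Relative to it miR-34a was 0.34 and 0.20 there.

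The CSC change in Star minus that in Stylo was 1.16 ± 0.85 (−1.18 to 3.51, adjusted p = 0.498) over 7 arrays, where 0% of miRNAs passed (0 by limma's adjusted p and 8 at an unadjusted p under 0.05). It was 0.17 ± 0.12 (adjusted p = 0.320) on slide 1, where 40% passed, and −0.018 ± 0.18 (−0.50 to 0.46, adjusted p = 0.981) in the recovered totals, where 33.9% passed. With slide as a block, which leaves 1 Stylo CSC and 1 Stylo parent array, it was 0.41 (adjusted p = 0.0374), and without Stylo CSC 2 it was 1.91 (adjusted p = 0.00135). A difference between the lines in how miR-34a changed on sorting therefore passed in none of the 3 sets, and intervals this wide do not show that it was alike.

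MiR-34a was the only miRNA of its family well above background. MiR-34b and miR-34c, the products of the other locus, had 0 spots well above background on each of the 7 arrays, with summed signals of −3.95 to 6.43 units. MiR-449a, of the related miR-449 family, also had 0 such spots. MiR-449b was below that line on all arrays, with summed signals of 30.9 and 14.1 units in Star CSC, 14.2 and 16.2 in Star parent, 14.2 and 32.7 in Stylo CSC and 1.85 in Stylo parent. The scanner software detected it on Star CSC 1 (8 of 40 spots well above background) and Stylo CSC 2 (12 of 37 spots) alone. Of 6 family names, 5 were on the array.

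The miRNAs whose levels were most like those of miR-34a depended on the array of slide 2. Over 7 arrays, let-7e (Pearson r = 0.921), miR-222 (0.919), miR-378 (0.910), miR-23b (0.853) and miR-331 (0.839) ranked first of 45 tested miRNAs compared. Over the 6 arrays of slide 1, miR-103 (0.954), miR-31 (0.899), miR-25 (0.898), miR-874 (0.888) and miR-188 (0.847) ranked first of 49, and the 2 lists of 5 shared 0 miRNAs. On slide 1, miR-31 and miR-25 were at the floor on 4 of the 6 arrays and above it in Star CSC alone. MiR-874 was at the floor on the Stylo parent array, and values at the floor have no order. MiR-188 and miR-31 were each well above background on 2 of the 6 arrays, miR-25 on 3 and miR-874 on 4. The part of such low signals in r was not tested. The median r over all compared miRNAs was 0.23 over 7 arrays and −0.019 on slide 1. All points share their arrays, and r is given as a description.

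MiR-103, a regulator of metabolism in mouse liver and fat, was first on slide 1 and in the 8 recovered columns (r = 0.914 of 55 compared). It was detected in 7 of those columns. In Stylo parent 2, the column where miR-34a was lowest (−1.78), it was at the floor (−4.89), and the part of that value in r was not tested. The slide 1 level of miR-103 was −1.61 and −1.72 in Star CSC, −1.92 and −2.11 in Star parent, −2.46 in Stylo CSC and −2.57 in Stylo parent, the order of groups that miR-34a had there. Over 7 arrays it was −3.15 on Stylo CSC 1 and −3.17 on Stylo CSC 2, so it did not share the gap of miR-34a between those 2 arrays (−2.81 and −1.31).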

How the data were processed

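Per the file headers, Agilent Feature Extraction 11.5.1.1 measured the deposited spot intensities (background-subtracted) on a design built on canFam3. The authors' deposited value table holds log2 totals, shifted per column and centred per miRNA; the shift's reason is not given in the sources used here. Per the labels' protocols, RNA of integrity 7 or more was used (100 ng, Cy3).

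Spots without outlier flags (3.84% to 9.24% flagged) were averaged per probe, and probes of 1 miRNA summed. Arrays were divided by the 75th percentile over 22 shared probes, floored and taken to log2. A probe with over 50% of its spots flagged well above background counts as such, and a miRNA with any such probe; it was tested if so on all arrays of a group. Limma 3.58.1 (R 4.3.3) fitted 4 group means, two-sided, with Benjamini-Hochberg adjustment over all tested miRNAs at 0.05. Over 7 arrays 3 residual degrees of freedom remain. Array number limits precision. The fit was tested on simulated data. The member and the marker lists were chosen with earlier results of these data known. The scanner files held no mean signal, so normexp used the median signal. Named were miR-34a, its family, cell type markers well above background, and the 5 miRNAs most like it over 7 arrays and, separately, on slide 1; some other planned lists are not reported here.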

Additional observations from a re-analysis of the deposited data

How the results depend on the processing

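Across 38 to 40 alternatives per contrast, Star CSC stayed above Star parent (0.11 to 1.26) and above Stylo CSC (0.24 to 2.17), mostly without passing (9 and 7 passed). Some alternatives repeat a fit, so these counts are not of separate fits. Leaving out Stylo CSC 1 is the slide 1 set. For Star CSC minus Star parent, slide as a block gives the same result as only these 2 groups. Star parent minus Stylo parent turned to −0.37 with scaling over all probes (also on slide 1) and to −0.15 with normexp. Over 7 arrays the medians of all tested miRNAs were then −0.71 and −0.35. The contrast was 0.094 over only these 2 groups. It passed there on the spread of the 2 Star parent arrays alone, since Stylo parent had 1 array. In unscaled recovered totals it passed at 0.77. Stylo CSC minus Stylo parent turned to 0.042 with slide as a block (which gives the 1 array of slide 2 no weight), 0.23 on slide 1, 0.52 in recovered totals (also with replicate block), 0.53 and 0.16 on slide 1 without scaling and with quantile normalization, and 0.62 in unscaled recovered totals. The interaction turned to −0.018 in recovered totals (also with replicate block) and to −0.020 on slide 1 with quantile normalization, and passed at 0.41 with slide as a block. Star CSC passed against Star parent at 0.46 with slide as a block and over 2 groups, 0.40 on slide 1, 0.50 in recovered totals, and unscaled at 1.02 on slide 1 and 1.02 in recovered totals; against Stylo CSC at 0.51 with slide as a block and on slide 1, and unscaled at 1.15 and 1.17.

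With 1 array left out in turn from 7, the range was 0.091 to 0.34 for Star parent minus Stylo parent, 0.40 to 0.51 for Star CSC minus Star parent, −1.46 to 0.23 for Stylo CSC minus Stylo parent, 0.51 to 2.01 for Star CSC minus Stylo CSC and 0.17 to 1.91 for the interaction. On slide 1 these were 0.29 to 0.40, 0.34 to 0.46, 0.23 (no change), 0.45 to 0.57 and 0.11 to 0.23, and in recovered totals 0.30 to 0.60, 0.39 to 0.54, 0.16 to 0.68, 0.35 to 0.53 and −0.18 to 0.23. There the interaction was also below 0 without Star CSC 1 (−0.055), Star parent 2 (−0.044) or Stylo CSC 1 (−0.083), Stylo CSC minus Stylo parent was 0.44 without Stylo CSC 2, and Star CSC minus Stylo CSC passed at 0.42 without Stylo parent 1. Without Stylo CSC 2, 4 of 5 contrasts had other calls, with adjusted p of 0.00831 and 0.00135 for Star CSC minus Star parent and the interaction. For probe A_38_P00002112, normexp gave −0.28, −0.024, −0.18 and −0.13 and scaling over all probes −0.24 and −0.17 in contrasts that were positive, Star CSC no longer passed at 1.24 and 1.17 with scaling over all probes, and the interaction passed at 1.07 without scaling; for A_38_P00002113, Star parent minus Stylo parent turned to −0.074 and −0.39.

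The labels do not say whether a replicate number marks shared material, and deviations of same-numbered arrays correlated at −0.58 to 0.47. With the replicate block, Star CSC minus Star parent was 0.46 (adjusted p = 0.758) and Star CSC minus Stylo CSC 1.26 (0.413) over 3 groups, since Stylo parent had 1 array; in recovered totals Star CSC minus Star parent was 0.50 and Stylo CSC minus Stylo parent 0.52, and both calls were lost (adjusted p = 0.0676 each). The count of called miRNAs ran from 0 to 36 over contrasts and alternatives, against 0 to 2 over 7 arrays. Alternatives on slide 1 and in recovered totals with other scalings, and arrays left out on slide 1, were chosen after seeing the data. Signal near background limits the dimmer probe and Stylo CSC 1. The causes were not tested.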
